A study of Mus musculus with 4 samples.

Results

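The genes described here encode 10 ubiquitin ligases that are known from the study of muscle wasting. They are Fbxo32 and Trim63, the usual markers of muscle atrophy, together with the relatives Trim54, Trim55, Fbxo40, Fbxo30 and Fbxo21, and 3 further muscle ligases, Asb2, Traf6 and Mul1. Members were found by their gene symbol, which was the whole of the rule, and all 10 were among the 20340 gene labels that had a value in every sample. All 10 also passed the filter on low values. The samples were the tibialis anterior (TA), the shin muscle that lifts the foot, of C57BL/6 mice at 20 months of age (Old) or at 3 months (Young). No treatment or altered allele is named for these mice. mRNA-seq was deposited for 2 samples per age, called Old 1, Old 2, Young 1 and Young 2. The submitters describe triplicates, and samples beyond these 4 were not analysed here. Pairs of values below are in the order of the sample numbers.

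Ubiquitin ligases mark proteins for breakdown by the proteasome by attaching ubiquitin to chosen substrates. An F-box or SOCS-box protein is the part of a cullin ligase complex that picks the substrate, while a TRIM protein carries its own RING domain and works without a cullin. In wasting muscle, Fbxo32 and Trim63 are induced by FoxO transcription factors, and growth signalling through Akt keeps these factors out of the nucleus.

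Values are FPKM, which divides the fragments of a gene by its transcript length and by the mapped total, so that levels can be set side by side between genes. Summed FPKM ran from 226747 to 739302 between samples, a 3.26-fold spread that did not follow age, with Old 1 and Young 2 high and Old 2 and Young 1 low. Among the 2447 genes with at least 10 FPKM in every sample, the median ratio of Old 1 to Old 2 was 1.97 (quartiles 1.93 and 2.06) and that of Young 2 to Young 1 was 1.94 (quartiles 1.91 and 2.03). The members had similar ratios from 1.93 to 2.19 between the old samples and from 1.77 to 2.23 between the young samples. Each sample was also scaled by the median ratio of its genes to their geometric mean, and the tests below use these scaled values. Old 1 and Young 2 were divided by 1.563 and 1.576, Old 2 and Young 1 by 0.638 and 0.656. Within each age these factors lay further apart than the median ratios above. Every member was then higher in Old 2 than Old 1 and in Young 1 than Young 2, and the SE of the tests includes this reversed gap. Taken from genes of at least 10 FPKM, the factors lay closer together, at 1.414 and 1.426 against 0.698 and 0.711. The labels do not say that the 2 samples of an age came from different mice. The p-values then measure only the spread between these samples, which may be technical. In whole muscle, fewer cells of a type and less RNA per cell cannot be told apart. Read counts were not used here, and the depth of the samples is unknown. Of the 13 skeletal muscle markers with a value, 9 were above 0 in every sample, among them Mylpf at 4152 to 22820 FPKM and Pvalb at 3244 to 20399 FPKM. The other 4 had listed values of 0, which can be failed estimates, Ckm in all 4 samples, Tnnt3 and Ttn in Old 1 and Old 2, and Neb in Old 2 and Young 1.

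The upstream sequences are shown for the members with the clearest difference in level that a RefSeq promoter table (assembly GRCm38.p6, the same sequence as mm10) held, and for Trim54 as a relative of Trim63. The table held a promoter for 8 of the 10 members, and Fbxo32 and Trim55 were not among them. The 250 bases before the start of Trim63 are chr4:134314870-134315119 (plus strand), those of Trim54 are chr5:31116362-31116611 (plus strand), and those of the outer start of Asb2 are chr12:103356002-103356251 (minus strand). Capitals mark the letters of a core FoxO motif, GTAAACA or TGTTTAC on the other strand.
Trim63: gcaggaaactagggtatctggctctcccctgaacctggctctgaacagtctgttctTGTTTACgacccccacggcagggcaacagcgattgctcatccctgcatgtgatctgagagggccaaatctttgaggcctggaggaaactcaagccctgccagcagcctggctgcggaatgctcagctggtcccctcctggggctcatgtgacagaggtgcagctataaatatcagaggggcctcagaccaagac
Trim54: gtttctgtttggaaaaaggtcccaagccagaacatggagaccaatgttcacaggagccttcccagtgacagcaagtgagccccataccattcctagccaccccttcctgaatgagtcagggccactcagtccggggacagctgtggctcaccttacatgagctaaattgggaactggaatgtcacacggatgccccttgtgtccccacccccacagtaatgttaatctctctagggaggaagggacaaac
Asb2: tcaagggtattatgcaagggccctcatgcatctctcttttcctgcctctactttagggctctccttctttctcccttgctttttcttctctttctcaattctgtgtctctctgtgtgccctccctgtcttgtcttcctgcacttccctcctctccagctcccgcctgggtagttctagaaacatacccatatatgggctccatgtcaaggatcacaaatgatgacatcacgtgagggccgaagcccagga
The FoxO core was found once in the Trim63 window, with its first base at -194 from the start, and in no window of the other 7 members. The Fbxo30 window (chr10:11281337-11281586) lay inside its locus, which starts at 11281330, so the bases before that start were not searched. On the minus strand, the outer windows of Fbxo40 (chr16:36990468-36990717) and Asb2 overlapped the ends of their loci, at 36990546 and 103356014. Motif distances there count from the RefSeq start and not from the end of the locus. Of all 32851 promoters, 3.17% held the FoxO core in the same length. A core Tcf motif, ATCAAAG or CTTTGAT on the other strand, was found in 0 of the 8 members and in 3.21% of all promoters. An E-box, CAGCTG on both strands, was found in 3 members, with its first base at -72 in Trim63 and at -113 in Trim54, and with 2 matches before the outer and 1 before the inner start of Fbxo40, against 13.0% of all promoters. None of these motifs overlapped another. A match of letters is a description of the sequence and not a binding site. Only exact letters within 250 bases were sought. The paper describes FoxO3 elements in the promoters of Trim63 and Fbxo32, several of them beside Tcf elements. It also reports FoxO3 bound at both promoters by chromatin immunoprecipitation, with only a slight rise in old muscle. In the same assay the paper reports significantly more β-catenin at both promoters in old muscle, and little Tcf3.

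Fbxo32 encodes atrogin-1, the F-box protein that targets MyoD and eIF3f in muscle. It lies at chr15:58175879-58214892 on the minus strand (mm10), and an annotated antisense gene, Gm15943, overlaps it, so that its reads may be counted with those of Fbxo32 if strand was not used. Its level was 95.9 and 45.9 FPKM in Old against 8.88 and 19.8 FPKM in Young. The old samples lay above the young samples in the deposited and in the scaled values. Scaled, the samples stood at 61.3 and 71.9 FPKM in Old against 13.5 and 12.6 FPKM in Young. The log2 fold change was 2.26 (SE 0.168, n = 2 per age), the largest of the members and the 31st highest of the 10266 genes tested. The adjusted p of 0.051 by limma missed the threshold of 0.05. With the scaling factor taken from genes of at least 10 FPKM, the log2 fold change was the same to 2 decimals (SE 0.064) and its adjusted p by limma was 0.0062.

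Trim63 encodes MuRF1, a RING ligase that binds titin in the sarcomere and targets thick filament proteins. Its locus is chr4:134315120-134329629 on the plus strand. Its level was 182 and 90.0 FPKM in Old against 45.0 and 87.6 FPKM in Young. The old samples were both above the young samples, but Old 2 and Young 2 differed little before scaling. After scaling they were 116 and 141 FPKM in Old and 68.6 and 55.6 FPKM in Young. The log2 fold change was 1.04 (SE 0.217, n = 2 per age), with an adjusted p of 0.158 by limma. Scaled on genes of at least 10 FPKM, it was 1.03 (SE 0.028) with an adjusted p by limma of 0.0062.

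**Figure D1:**
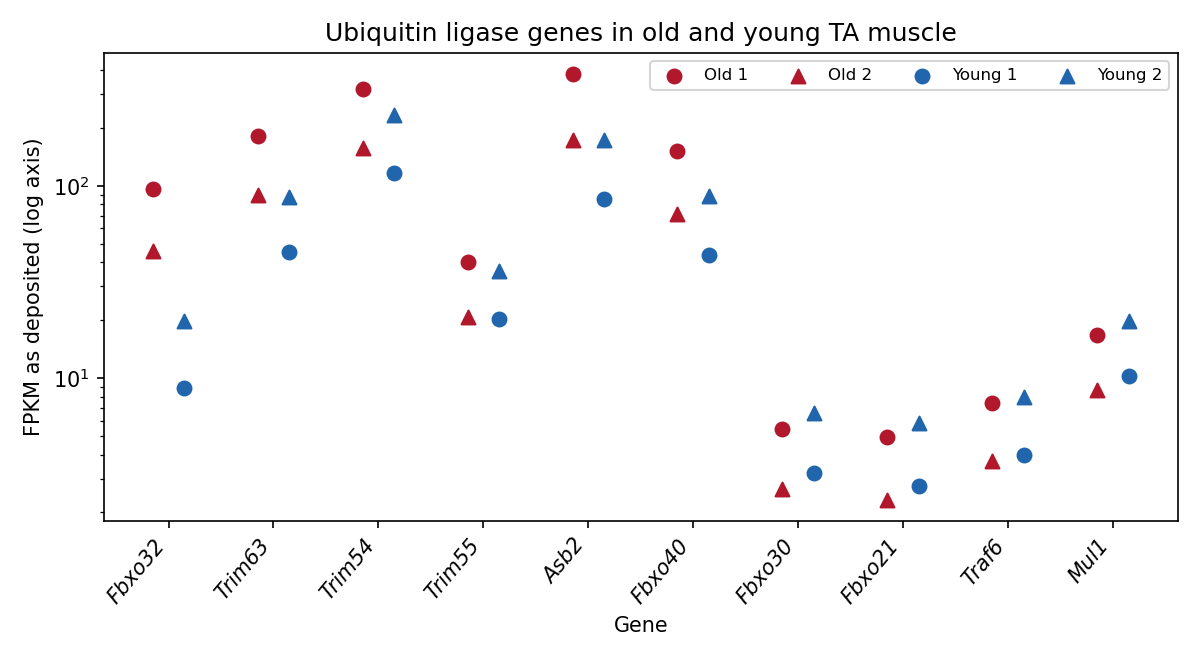
The deposited FPKM (log axis) is plotted for each of the 10 ubiquitin ligase genes, with old samples in red, young samples in blue, circles for the samples numbered 1 and triangles for those numbered 2. Fbxo32 is the gene with the widest gap between ages, from 45.9 to 95.9 FPKM in Old against 8.88 to 19.8 FPKM in Young, and in every gene Old 1 and Young 2 are the higher sample of their age.

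Trim54 and Trim55 encode MuRF3 and MuRF2, the nearest relatives of MuRF1, which bind microtubules and the sarcomere. Trim54 lies at chr5:31116612-31137626 (plus strand), where the antisense gene Gm15469 overlaps it. Trim54 was 321 and 158 FPKM in Old against 117 and 233 FPKM in Young. The deposited values overlapped between ages, whereas the scaled values did not, at 205 and 248 FPKM in Old and 178 and 148 FPKM in Young. Its log2 fold change was 0.47 (SE 0.204), with an adjusted p of 0.344 by limma, or 0.0082 with the scaling on genes of at least 10 FPKM. Trim55, at chr3:19644448-19692495 (plus strand) with the sense intronic gene BC002189 inside it, was 40.1 and 20.8 FPKM in Old against 20.4 and 36.1 FPKM in Young. Its ages overlapped on either scale, and the log2 fold change was 0.11 (SE 0.241, adjusted p = 0.925 by limma). Within this subfamily the log2 fold change thus ran from 0.11 in Trim55 over 0.47 in Trim54 to 1.04 in Trim63.

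Asb2 is a SOCS-box protein that hands filamins to a cullin ligase and whose excess is known to thin muscle fibres. Its locus is chr12:103320391-103356014 (minus strand), and the antisense gene Gm15523 overlaps it. Asb2 was 381 and 173.5 FPKM in Old against 85.5 and 173.5 FPKM in Young. Old 2 and Young 2 were nearly equal before scaling and 272 against 110 FPKM after it. The log2 fold change was 1.10 (SE 0.185, n = 2 per age), close to that of Trim63, with an adjusted p of 0.131 by limma, or 0.0078 with the scaling on genes of at least 10 FPKM. Fbxo40, a muscle F-box protein that targets the insulin signalling adaptor IRS1, lies at chr16:36963297-36990546 (minus strand). It was 152 and 71.1 FPKM in Old against 43.7 and 88.8 FPKM in Young, so its ages overlapped as deposited. On the scaled values they did not overlap, and the log2 fold change was 0.76 (SE 0.194, adjusted p = 0.192 by limma, or 0.0079 with the scaling on genes of at least 10 FPKM).

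The other 4 members were at low or moderate levels and none was higher in Old. Fbxo30 encodes MUSA1, an F-box protein that BMP signalling holds down, and lies at chr10:11281330-11298033 (plus strand). Fbxo30 was 5.46 and 2.65 FPKM in Old against 3.21 and 6.60 FPKM in Young. Fbxo21, whose product is called SMART and which lies at chr5:117976770-118010191 (plus strand), was 4.96 and 2.33 FPKM in Old against 2.76 and 5.82 FPKM in Young. On the scaled values both old samples were below both young samples in these F-box genes by a narrow margin, with log2 fold changes of -0.20 (SE 0.126, adjusted p = 0.487 by limma) for Fbxo30 and -0.17 (SE 0.111, adjusted p = 0.520 by limma) for Fbxo21. Traf6, a RING ligase of NF-kB and autophagy signalling at chr2:101678440-101701598 (plus strand), was 7.38 and 3.69 FPKM in Old against 3.99 and 8.01 FPKM in Young. Its ages overlapped, and the log2 fold change was -0.08 (SE 0.145, adjusted p = 0.898 by limma). Mul1, a ligase of the outer mitochondrial membrane that acts on mitofusin, lies at chr4:138434672-138442265 (plus strand) and was 16.7 and 8.66 FPKM in Old against 10.2 and 19.8 FPKM in Young. Its scaled values overlapped between ages and the log2 fold change was -0.20 (SE 0.193, adjusted p = 0.685 by limma). The scaling on genes of at least 10 FPKM put Mul1 past the threshold, at a log2 fold change of -0.21 and an adjusted p by limma of 0.046.

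Counted over the members, 0 of 10 were past an adjusted p of 0.05 by limma in either direction, where 0.234% of all genes tested were called higher and 0.214% lower in Old. At an unadjusted p under 0.05, 4 members were higher (Fbxo32, Trim63, Asb2 and Fbxo40) and 0 were lower, against 8.4% and 9.68% of all genes. With the scaled values, the old samples lay above the young samples in 5 members, against 23.7% of all genes, and below them in 2, against 23.5%. With the scaling on genes of at least 10 FPKM, 5 members rose (the same 4 and Trim54) and 1 fell (Mul1) past an adjusted p of 0.05 by limma, against 14.2% and 14.8% of all genes. The difference lay in the spread between the samples of an age, with an SE of 0.028 to 0.077 in place of 0.111 to 0.241, and not in the log2 fold changes, which moved by less than 0.01. On the deposited values without scaling, the SE was 0.933 to 1.03 and 0 of 10 passed, with an adjusted p of 1.00 for every member by limma. The median log2 fold change was 0.29 over the members and 0.0038 over all genes tested.

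**Figure D2:**
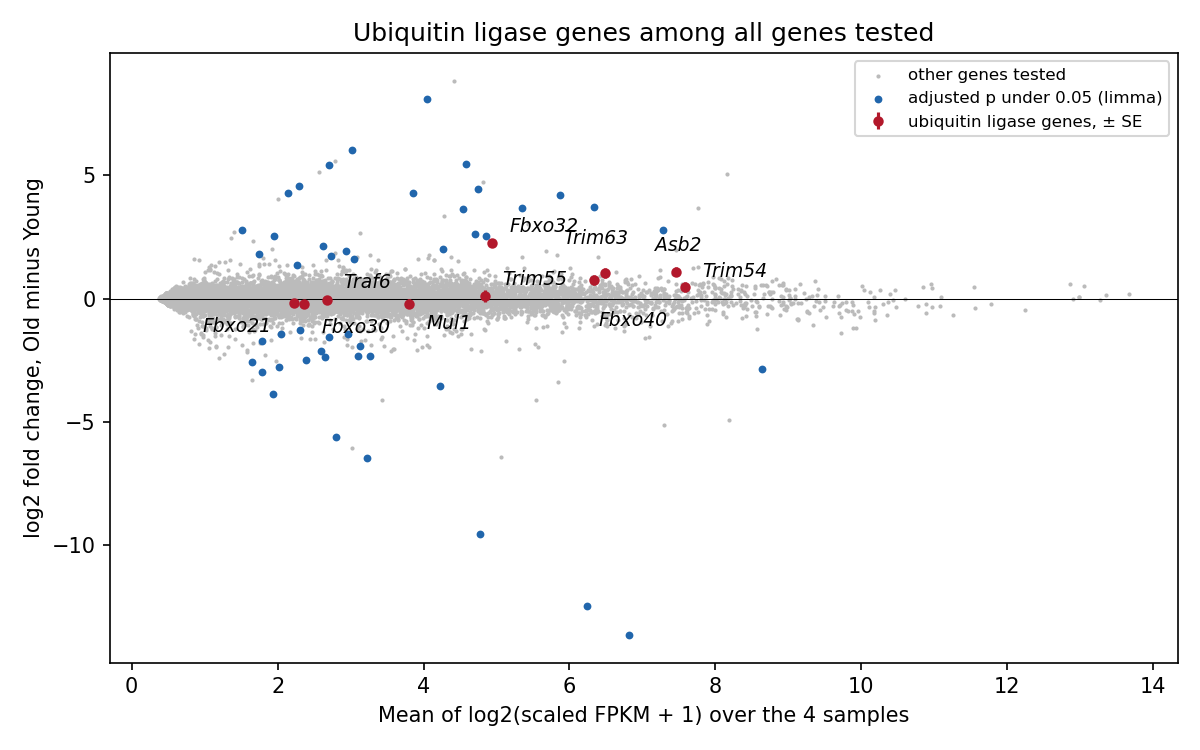
The log2 fold change between ages is plotted against the mean of log2(scaled FPKM + 1) over the 4 samples for the 10266 genes tested, with called genes in blue and the 10 ubiquitin ligase genes in red with their SE. Fbxo32 stands at 2.26, apart from the bulk of genes at its level, Trim63 and Asb2 at 1.04 and 1.10 lie at its upper edge, and Traf6, Mul1, Fbxo30 and Fbxo21 lie within it.

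The order of the levels is per transcript length and was read from the scaled FPKM. In Old it ran from Asb2 (244 and 272 FPKM) and Trim54 over Trim63, Fbxo40, Fbxo32, Trim55 (25.6 and 32.6 FPKM), Mul1 and Traf6 to Fbxo30 and Fbxo21 (3.17 and 3.65 FPKM). The neighbours Asb2 and Trim54, and Fbxo30 and Fbxo21, did not differ beyond the spread of the old samples, although Asb2 was above Trim54 and Fbxo30 above Fbxo21 within each of them. In Young, Trim54 was highest (178 and 148 FPKM), followed by Asb2, Trim63, Fbxo40, Trim55, Mul1, Fbxo32, Traf6, Fbxo30 and Fbxo21. Here Trim63 overlapped with Fbxo40, Mul1 with Fbxo32, and Fbxo30 with Fbxo21, of which Fbxo30 was the higher within each young sample. Fbxo32 was thus level with Mul1 in Young and above Trim55 in Old.

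A ratio of 2 members within a sample does not depend on the scaling between samples. The ratio of Fbxo32 to Trim63 was 0.528 and 0.510 in Old against 0.197 and 0.226 in Young, a 2.45-fold difference between ages. The ratio of Fbxo32 to Mul1 was 5.74 and 5.29 in Old against 0.870 and 1.00 in Young. Against every other member the ratio of Fbxo32 was higher in both old samples, by 2.37-fold against Asb2, 2.99-fold against Fbxo40, 3.66-fold against Trim54, 4.70-fold against Trim55 and 5.41- to 6.05-fold against Traf6, Fbxo21, Mul1 and Fbxo30. These ratios share Fbxo32 as numerator, the member with the largest log2 fold change, so they restate its rise and are not separate results. The share of all genes tested with such a ratio was not counted. Trim63 was higher in Old relative to Trim54 by 1.49-fold, to Trim55 by 1.92-fold and to Fbxo40 by 1.22-fold. Its ratio to Asb2 was 0.477 and 0.518 in Old against 0.527 and 0.505 in Young, which overlapped between ages (fold 0.965, exact permutation p = 0.667, two-sided). For each of the other ratios the two-sided exact permutation p was 0.333, the smallest that 2 samples against 2 allow, so no ratio could pass a threshold of 0.05.

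**Figure D3:**
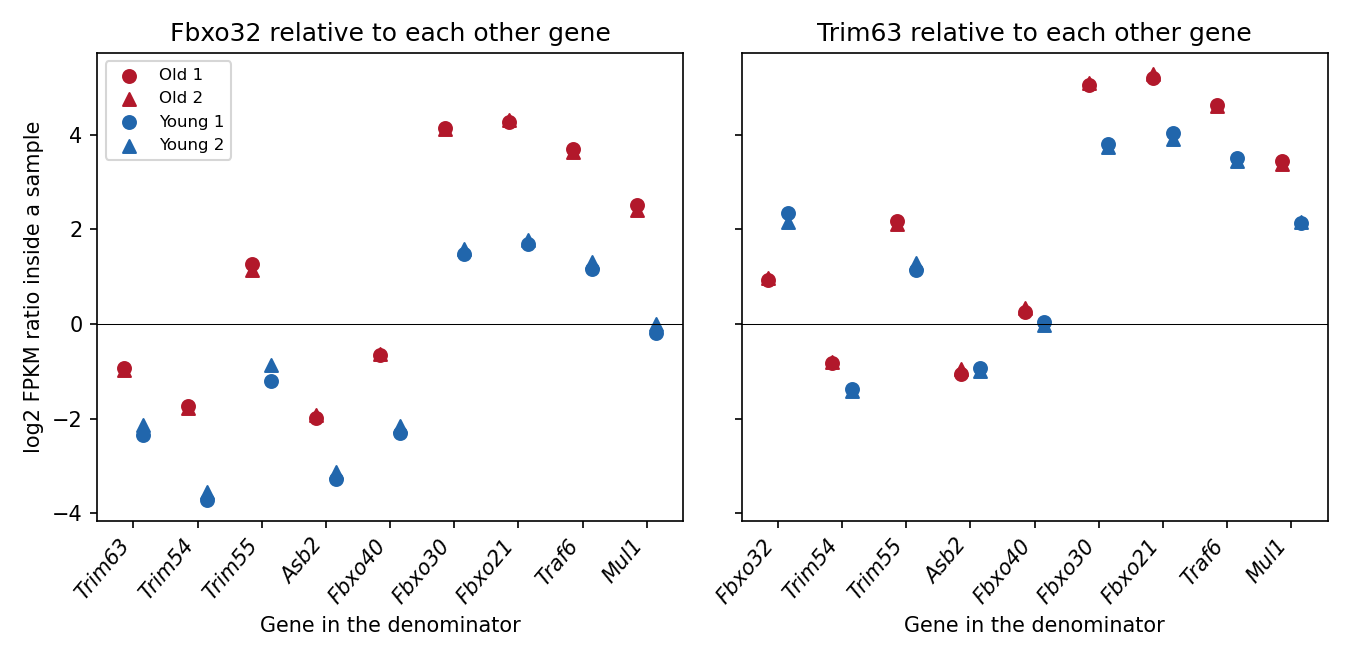
The log2 ratio of Fbxo32 (left) and of Trim63 (right) to each other member is plotted for each sample, with old samples in red, young samples in blue, circles for samples numbered 1 and triangles for samples numbered 2. The ratios of Fbxo32 are higher in both old samples for all 9 other genes, while the ratios of Trim63 to Asb2 overlap between ages. The ratios of a panel share their numerator, so they are not separate results.

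The genes whose 4 values were most like those of Fbxo32 were sought by the Euclidean distance of log2(scaled FPKM + 1) values, each gene centred on its own mean. The nearest were Egr1 (distance 0.205), Mib1 (0.237), Pla2g7 (0.340), Fos (0.362) and Atp2a2 (0.412). Egr1 and Fos encode immediate early transcription factors, Mib1 a ubiquitin ligase of Notch ligands, Pla2g7 a secreted phospholipase and Atp2a2 the calcium pump of slow fibres. Egr1 was 16.5 and 8.48 FPKM in Old against 1.23 and 3.25 FPKM in Young. All 5 were past the threshold by limma, where 0.234% of all genes tested were called higher. Their log2 fold changes ran from 1.91 in Fos to 2.60 in Pla2g7, with adjusted p from 0.045 to 0.049 by limma. The nearest genes to Trim63 were Wnt4, C80913, Hist1h1c, Nin and Scnm1-ps, at distances from 0.042 to 0.056, with log2 fold changes from 0.99 to 1.03 and adjusted p from 0.126 to 0.168 by limma. Both sets of genes were chosen by the same values that limma compares, so their fold changes and calls follow from the choice. Likeness over 4 samples is a description and was not tested.

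Transcription factors and coregulators that are known to act on the atrophy ligase genes had 20 of 23 genes with a value. Of these 19 were tested. By limma 0 were called higher and 1 lower, Cebpd, which encodes a C/EBP factor of the stress response. Of all genes tested, 0.234% were called higher and 0.214% lower. At an unadjusted p under 0.05, 1 of the 19 was higher and 5 were lower, against 8.4% and 9.68% of all genes. Cebpd was 5.61 and 2.22 FPKM in Old against 11.3 and 23.5 FPKM in Young, and it fell by 1.91 on the log2 scale (SE 0.118, adjusted p = 0.045 by limma). Foxo1, which encodes a FoxO factor, was 4.89 and 2.36 FPKM in Old against 6.83 and 13.2 FPKM in Young. Its log2 fold change was -1.23 (SE 0.148, adjusted p = 0.093 by limma). Foxo3 and Foxo6 stood at -0.30 (adjusted p = 0.433 by limma) and -0.68 (adjusted p = 0.124 by limma). Cebpb stood at -1.23 (adjusted p = 0.121 by limma) and Ppargc1a at -0.67 (adjusted p = 0.196 by limma). Ppargc1a encodes PGC-1α, which the paper lists among the inhibitors of FoxO3 activity. Hdac4, the histone deacetylase that denervation raises, had the highest log2 fold change of the list, at 0.89 (SE 0.169, adjusted p = 0.144 by limma), with 14.7 and 7.51 FPKM in Old against 3.80 and 7.37 FPKM in Young. With the scaling on genes of at least 10 FPKM, 1 of the 19 was called higher (Hdac4) and 9 lower, against 14.2% and 14.8% of all genes. With the scaling used for the tests, the list had a median of -0.16. These are mRNA levels, and FoxO activity, which depends on the protein's place in the cell, was not measured. Of this list, all but Cebpd were named after their values were seen.

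**Figure D4:**
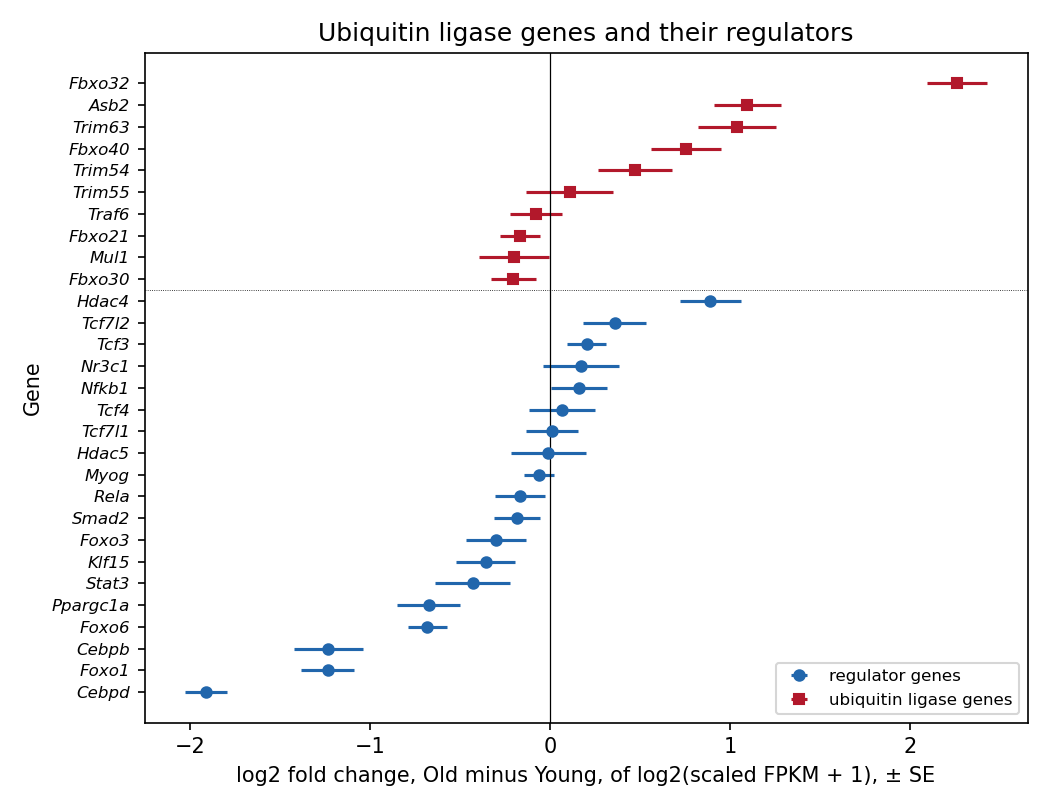
The log2 fold change with its SE (limma, n = 2 per age) is plotted for the 10 ubiquitin ligase genes (red squares) and 19 genes of transcription factors and coregulators that are known to act on them (blue circles). Fbxo32 at 2.26 lies at one end of the plot, and Cebpd at -1.91 and Foxo1 and Cebpb at -1.23 at the other.

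Relatives of the members were compared as whole lists. Of 33 TRIM genes 22 were tested, and 0 were called in either direction by limma (1 higher and 2 lower at an unadjusted p under 0.05). Their median log2 fold change was -0.03, and the extremes were Trim47 at -0.79 and Trim13 at 0.57, against 1.04 in Trim63. Of 48 other F-box genes 33 were tested and 0 called (0 higher and 1 lower unadjusted), with a median of 0.01 and a range from -0.40 in Fbxo18 to 0.47 in Fbxl4, far below the 2.26 of Fbxo32. Of 15 other ASB genes 12 were tested and 0 called (2 higher and 1 lower unadjusted), with a median of -0.03 and a range from -0.71 in Asb1 to 0.71 in Asb15, against 1.10 in Asb2. The scaling on genes of at least 10 FPKM called 3 TRIM genes higher and 4 lower, and 4 F-box genes higher and 5 lower. It called 5 ASB genes higher and 2 lower. Of all genes tested, it called 14.2% higher and 14.8% lower. At an unadjusted p under 0.05 by limma, with the scaling used for the tests, 8.4% of all genes were higher and 9.68% lower. The genes named as extremes were chosen after their values were seen.

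The core of the cullin ligases, on which Fbxo32, Fbxo40, Fbxo30, Fbxo21 and Asb2 depend, had 25 of its 31 genes tested. By limma 0 were called, also at an unadjusted p under 0.05, and the median log2 fold change was -0.06. Of all genes tested, 8.4% were higher and 9.68% lower at that unadjusted p. The list ran from -0.37 in Ube2f to 1.10 in Elob (Tceb2 in the deposited values, SE 1.91). Skp1 (Skp1a in the deposited values), which joins F-box proteins to Cul1, was 213 and 110 FPKM in Old against 87.5 and 169 FPKM in Young (log2 fold change 0.35, adjusted p = 0.500 by limma), and Cul1 stood at 0.46 (adjusted p = 0.381 by limma). With the scaling on genes of at least 10 FPKM, 5 core genes were called higher and 2 lower, against 14.2% and 14.8% of all genes. Of 30 other ligases named in muscle, 22 had a value and were tested, 0 were called by limma (1 higher and 1 lower unadjusted), and the median was 0.02, with a range from -0.59 in Trim72 to 1.02 in Kbtbd12. With the other scaling 4 were called higher and 4 lower, against the same shares of all genes. Known substrates and partners of the members had 19 of 22 genes tested, 0 called by limma (0 higher and 3 lower unadjusted), and a median of -0.23. Flnc, a filamin of muscle and thereby a relative of the Asb2 substrates, stood at -1.20 (adjusted p = 0.112 by limma), with 94.6 and 42.9 FPKM in Old against 92.5 and 245 FPKM in Young. Eif3f and Myod1, substrates of atrogin-1, stood at -0.12 and -0.27, and the mitofusin gene Mfn2 at -0.15, each with an adjusted p above that of Flnc by limma. Ttn had a listed value of 0 in Old 1 and Old 2, so no fold is given. With the scaling on genes of at least 10 FPKM, 2 of the list were called higher and 7 lower, against 14.2% and 14.8% of all genes. The extremes of these lists, and Skp1, Cul1, Flnc, Eif3f, Myod1 and Mfn2, were named after their values were seen.

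Markers of slow fibres moved with age in the same samples as Fbxo32. Of 6 slow fibre markers 5 had a value, and all 5 rose by limma (log2 fold changes from 3.63 to 4.42), with a summed level of 747 and 660 scaled FPKM in Old and 42.6 and 46.3 scaled FPKM in Young. None of the 5 was at 0. Of 6 fibroblast markers 0 were called by limma (3 lower unadjusted), and their summed level was 115 and 145 scaled FPKM in Old and 202 and 166 scaled FPKM in Young, and the log2 fold changes of its members went both ways. The collagen genes Col1a1, Col1a2 and Col3a1 stood at -1.95 (adjusted p = 0.070 by limma), -1.53 and -1.40 and Lum at -0.16, while Dcn stood at 0.32 and Pdgfra at 0.16. With the scaling on genes of at least 10 FPKM, 1 fibroblast marker was called higher (Dcn) and 3 lower (the collagen genes). That scaling called 14.2% of all genes higher and 14.8% lower. Of the skeletal muscle markers, 12 were tested and 1 was called lower, Tnnt3, with a listed value of 0 in Old 1 and Old 2. Unadjusted, 4 of these markers were lower and 0 higher, and the lower ones were Tnnt3, Ttn, Actn2 (log2 fold change -1.01, adjusted p = 0.124 by limma) and Mb (-0.66, adjusted p = 0.277 by limma). Of the markers of endothelial cells, macrophages, adipocytes, satellite cells, Schwann cells and smooth muscle, 0 were called by limma. Unadjusted, 1 adipocyte marker was higher, and 1 endothelial and 2 Schwann cell markers were lower. Of all genes tested, 0.234% were called higher and 0.214% lower by limma, and 8.4% and 9.68% unadjusted. The part of fibre type or of other cells in the levels of the ligase genes was not tested.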

How the data were processed

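The 4 samples of TA muscle mRNA-seq, 2 per age, were grouped by the age in their labels. The authors aligned reads to mm10 with TopHat2 (2.0.10 in the submitters' processing notes, which also name Cuffdiff 2.1.1) and deposited FPKM values per locus for each sample. The paper names a stranded kit and the labels do not, so reads of overlapping antisense genes may not be separable. FPKM of loci with the same symbol were summed, and 1 incomplete line per sample was left out. Depth is unknown. FPKM were scaled by the median of ratios over genes above 0 in all samples. log2(scaled FPKM + 1) of genes with at least 1 FPKM in 2 samples (10266) was compared with limma 3.58.1 in R 4.3.3 (trend, two-sided, Benjamini-Hochberg over all genes tested, threshold 0.05), so fold changes of low genes are understated. The fit was tested on simulated data in which all genes of a sample had the same factor. That test does not cover factors that differ with the level of a gene. Other steps used scipy 1.17.1, matplotlib 3.10.9, numpy 2.4.6 and pandas 2.3.3 in Python 3.11.15.

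All 10 members were named. From each of 7 lists, up to 3 called genes per direction whose ages did not overlap were to be named, and for Fbxo32 and Trim63 the 5 genes nearest in pattern. The members, lists, scaling and tests were chosen with earlier results of these data known. Alternatives were other scalings, pseudocounts and filters, the highest row per symbol, no trend, replicate blocks and leaving out each sample. Crossed blocks were added after seeing the data. Same-numbered samples deviated from their age means in opposite directions (correlation -0.906 over genes).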

Additional observations from a re-analysis of the deposited data

Results flagged for a closer look

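3 relatives of the members had values in only Old 2 and Young 1, and so entered no comparison, with a level that was higher in the old sample. Cul4a, the scaffold of a cullin ligase, was 23.6 FPKM in Old 2 and 21.1 FPKM in Young 1, a ratio of 1.12. Fbxo25, an F-box gene, was 3.99 FPKM in Old 2 and 3.34 FPKM in Young 1, a ratio of 1.20. Trim68, a TRIM gene, was 2.46 FPKM in Old 2 and 2.20 FPKM in Young 1, a ratio of 1.12. With 1 sample per age and no scaling of these values, none of the ratios has a replicate check and the differences were not tested. Trim3, with a value in the same samples, was lower in Old 2, at 3.79 FPKM against 4.63 FPKM.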

How the results depend on the processing

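The log2 fold change of 8 members kept its sign in all 17 alternatives (Fbxo32 from 2.15 to 2.38, Trim63 from 0.89 to 1.19, Asb2 from 0.98 to 1.22, Fbxo40 from 0.64 to 0.87, Trim54 from 0.34 to 0.61). Exceptions were Trim55 (-0.10 to 0.32 with each sample left out in turn, at -0.06 without Old 2 and -0.10 without Young 2) and Traf6 (-0.20 to 0.048, at 0.048 without Old 1 and 0.034 without Young 1). Eif3f, a substrate, also turned (-0.30 to 0.061, at 0.047 without Old 1 and 0.061 without Young 1). The ratio of Trim63 to Asb2 ran from -0.11 to 0.01 on the log2 scale, above 0 only without Old 1 (0.0078). The other ratios kept their direction.

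Calls depended on the setting far more. Fbxo32 was called in 14 of the 17, with an adjusted p by limma from 1.02e-16 to 1.00, and not on the deposited values, without a filter (0.101) or without the trend (0.0735). Cebpd and the 5 genes nearest to Fbxo32 lost their call in the same 3 settings. Trim63, Asb2 and Fbxo40 were each called in 6, and Trim54 in 4. All genes called by limma, higher and lower in Old, were 24 and 22 as reported and 18 and 13 on the deposited values. They were 1454 and 1516 with the scaling on genes of at least 10 FPKM, and 31 and 31 with median scaling. Quantile normalization gave 89 and 136, cyclic loess 1135 and 1395, and a pseudocount of 0.1 gave 37 and 40. The highest row per symbol gave 34 and 28, and the fit without a filter 6 and 4. The counts were 708 and 635 when every sample had to reach 1 FPKM, and 7 and 4 without the trend. Members called higher, 0 as reported, were 1 with median scaling, a pseudocount of 0.1 or the highest row per symbol, 4 with quantile normalization or when every sample had to reach 1 FPKM, and 5 with the scaling on genes of at least 10 FPKM or cyclic loess, and 1 was lower with that scaling. Genes of the 7 lists called, 0 higher and 1 lower as reported among 165 with a value, were 24 and 32 with that scaling, 17 and 28 with cyclic loess, 6 and 12 when every sample had to reach 1 FPKM, 3 lower with quantile normalization, and 0 lower without a filter or trend.

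With each sample left out in turn, 57 to 435 genes were called higher and 67 to 564 lower, 1 member was higher each time (Fbxo32, adjusted p by limma from 3.97e-06 to 0.0204), and 0 to 7 list genes were higher and 3 to 9 lower. The lone sample left in an age is then assumed to vary like the other age. Old 1, Old 2, Young 1 and Young 2 each moved the count over 1.5 times, to 270, 57, 85 and 435 genes higher when left out. The replicate block called 98 genes higher and 118 lower, 1 member higher and 3 list genes lower, but same-numbered samples deviated in opposite directions, so the numbers do not pair the samples. The crossed pairs as a block, added after seeing the data, called 3300 genes higher and 3336 lower (5 and 3 members, the 3 being Fbxo30, Fbxo21 and Mul1, and 47 and 62 list genes), or 2812 and 3374 on the deposited values (5 and 4 members, now with Traf6, and 44 and 65 list genes). The cause of these differences in calls was not tested. Read depth is unknown, so its limit on each value cannot be given, and the list of other muscle ligases had a value for 22 of 30 genes.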
